A study of Sus scrofa with 9 samples.

Results

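The genes described here are 10 sensors of foreign or misplaced nucleic acids and the proteins that pass their signal on: *RIGI*, *IFIH1*, *DHX58*, *TLR3*, *ZBP1*, *CGAS*, *STING1*, *MAVS*, *IRF3* and *IRF7*. They were chosen by name and function, because plasmids and siRNAs are nucleic acids that a cell can sense. Earlier results of these data were known at that choice and at that of the lists below, so counts of calls are not independent support. All 10 were found by symbol among the 16562 genes of the expression table, where *RIGI* is written DDX58. All 10 had enough counts to be tested, with 12721 genes tested in all. *CGAS* and *STING1* lay near the limit of that filter. *CGAS* passed it only through the overexpression and siRNA libraries, so its calls against control, counted below, were fixed in part by the filter.

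The cells were porcine primary preadipocytes from the back fat of a female Rongchang piglet, grown with fetal serum and induced to differentiate with insulin, 3-isobutyl 1-methylxanthine and dexamethasone. Bulk RNA sequencing was done at day 8 in 3 groups of 3 libraries. The overexpression libraries (genotype Overexpression) came from cells given a plasmid with lnc*PLAAT3*-AS, the siRNA libraries (genotype inhibition) from cells given an siRNA against that lncRNA, and the control libraries carry the genotype WT. The series text calls the control blank, whereas the paper speaks of a negative control for the sequencing and of a negative control siRNA (si-NC) for its transfections. Libraries of cells with an empty plasmid were not analysed here, so delivery of plasmid DNA and the lncRNA level cannot be told apart in the overexpression libraries. In siRNA against control, delivery of an siRNA and the lncRNA level cannot be told apart if the control was blank. If it was si-NC, both groups were given an siRNA, and the lncRNA level cannot be told apart from other effects of the siRNA's own sequence. Overexpression and siRNA libraries differ both in the kind of nucleic acid delivered and in the intended lncRNA level. Those cannot be told apart in their direct comparison. With 1 pig as the only donor, p-values cover the spread between these libraries, which may be technical, and not that between animals.

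Estimated counts summed to between 16724902 and 17495882 per library, a narrow range. Collagen and mesenchymal genes marked the cultures as fibroblast-like. *COL1A1* stood at 64830, 16800 and 48650 CPM (counts per 1e+06, scaled with TMM factors) in the overexpression, siRNA and control libraries. The order differed between markers, and *DCN* averaged 570, 1515 and 969 CPM in the same libraries. Of 9 tested preadipocyte and fibroblast markers, 3 were higher and 6 lower in overexpression than in control libraries. In siRNA libraries 5 were higher and 4 lower. Of all tested genes, 23.9% were higher and 23.4% lower in overexpression libraries, and 29.5% and 29.9% in siRNA libraries. *ADIPOQ*, the adiponectin gene of the mature fat cell, was scarce, with 9, 0 and 11 counts over the 3 libraries of each group. Other adipocyte markers were less scarce. *LPL* averaged 84.0, 417.6 and 65.1 CPM and *FABP4* 13.5, 6.3 and 7.8 CPM in overexpression, siRNA and control libraries. Of 8 tested adipocyte markers, 3 were higher and 1 lower in overexpression than in control libraries. In siRNA libraries 2 were higher (*LPL* and *CD36*) and 5 lower. *PPARG*, the master factor of fat cell formation, was lower in both, with log2 fold changes of -0.43 in overexpression and -2.14 in siRNA libraries. *ACTB*, the cytoskeletal actin used by all cells, averaged 3589 ± 77.4, 2052 ± 113 and 3454 ± 79.0 CPM in the same order (SD, n = 3 each), and *GAPDH*, an enzyme of glycolysis, averaged 5438 ± 60.8, 8046 ± 226 and 7025 ± 508 CPM. In bulk RNA, fewer cells of a type and less RNA per cell cannot be told apart.

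Mammalian cells watch for nucleic acids in several compartments. *RIGI* and *IFIH1* (MDA5) are cytosolic helicases that bind double-stranded RNA and signal through *MAVS*, an adaptor on the mitochondrial membrane, and *DHX58* (LGP2) is a related helicase without the signalling domains that tunes them. *TLR3* senses double-stranded RNA in endosomes. *CGAS* binds cytosolic DNA and makes the messenger cGAMP for *STING1*, an adaptor of the endoplasmic reticulum, while *ZBP1* binds Z-form nucleic acid. Most of these routes end in phosphorylation of the transcription factors *IRF3* and *IRF7*, which drive interferon genes, and in many tissues several of the sensors are themselves interferon-inducible.

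The cytosolic sensors and *IRF7* rose in both manipulated groups. The adaptor *MAVS* and its target *IRF3* were modestly lower in the overexpression group, a count of lower members close to the share of all tested genes. Neither of them passed the test in the siRNA group. Against control, 7 of 10 members were higher and 2 lower in overexpression libraries at an adjusted p under 0.05 (edgeR's quasi-likelihood test), where 23.9% of all tested genes were higher and 23.4% lower. In siRNA libraries 7 were higher and 0 lower than in control, against 29.5% and 29.9% of all tested genes, and 0 were lower at an unadjusted p under 0.05. In the direct comparison of overexpression with siRNA libraries, 0 members were higher and 8 lower, where 32.8% of tested genes were higher and 33.9% lower. No member was higher there at an unadjusted p under 0.05. With DESeq2, members called numbered the same 7 higher and 2 lower, 7 higher and 0 lower, and 0 higher and 8 lower.

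When a change of at least 2-fold was also asked for, 5 members were higher and 0 lower in overexpression than in control libraries, where 2.61% of all tested genes were higher and 1.89% lower. By that rule 6 were higher and 0 lower in siRNA than in control libraries (7.67% and 7.52% of all tested genes). In overexpression against siRNA libraries it gave 0 higher and 5 lower (9.54% and 9.17%).

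The median log2 fold change of the members was 1.33 in overexpression against control, where that of all tested genes was 0.0060. It was 3.00 in siRNA against control (all genes -0.00064) and -1.06 in overexpression against siRNA (all genes -0.0077). Groups did not overlap for 9 of 10 members in overexpression against control, where 57.1% of all tested genes had no overlap. The same held for 8 of 10 members in siRNA against control (61.3% of all genes) and for 8 of 10 in overexpression against siRNA (72.5%). The comparisons with control use the same 3 control libraries.

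**Figure D1:**
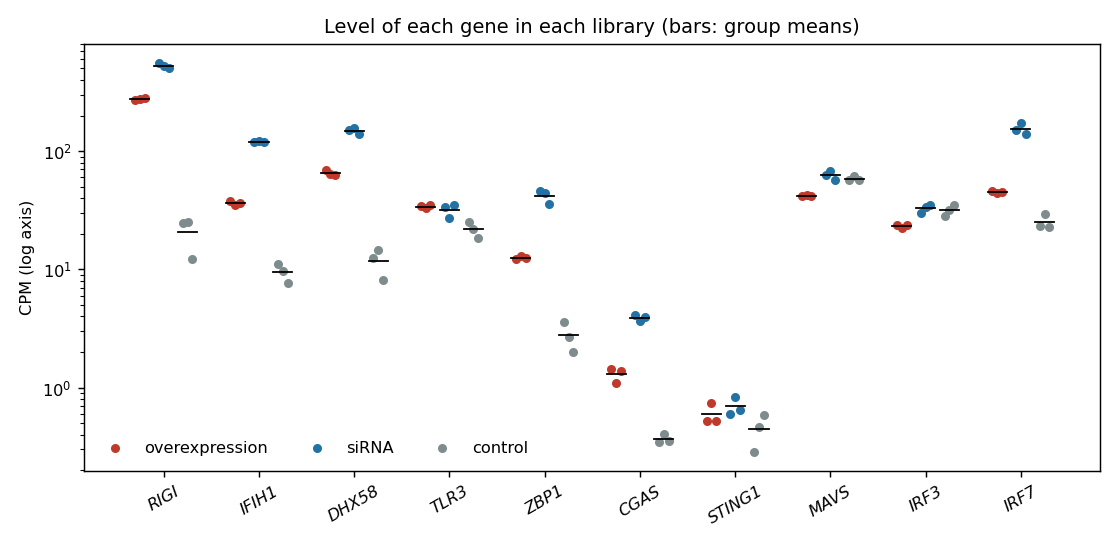
Level of the 10 genes in each library (CPM, log axis) for overexpression (red), siRNA (blue) and control (grey), each point a library and each bar a group mean. *RIGI* spans 12.2 CPM in a control library to 552 CPM in an siRNA library, while *CGAS* and *STING1* stay below 5 CPM everywhere.

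*RIGI*, which recognises short double-stranded RNA with a 5′ triphosphate, had the largest fold change of the 10 members in both comparisons with control. Its level was 269, 275 and 279 CPM in the overexpression libraries and 552, 527 and 508 CPM in the siRNA libraries, against 24.7, 24.9 and 12.2 CPM in the control libraries. The lowest overexpression library thus lay far above the highest control library, and the siRNA libraries lay higher still. Relative to control the change was 13.3-fold in overexpression libraries (log2 fold change 3.73, SE 0.227, adjusted p = 1.29e-05) and 25.6-fold in siRNA libraries (4.68, SE 0.232, adjusted p = 1.46e-06). Between overexpression and siRNA libraries the log2 fold change was -0.95 (SE 0.190, adjusted p = 0.00339). In the pig assembly Sscrofa11.1 of RefSeq the gene overlaps *ACO1*, and use of strand in the counting is not given in the sources used here. *ACO1* averaged 145 CPM in overexpression, 88.9 CPM in siRNA and 132 CPM in control libraries, so it did not share the course of *RIGI*.

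*IFIH1*, the sensor of long double-stranded RNA, had 38.1, 35.2 and 36.2 CPM in overexpression libraries and 118.6, 121.6 and 119.6 CPM in siRNA libraries, against 11.1, 9.75 and 7.70 CPM in control libraries. The 3 groups formed separate steps with no overlap. The rise was 3.84-fold in overexpression libraries (log2 fold change 1.94, SE 0.0933, adjusted p = 1.22e-12) and 12.6-fold in siRNA libraries (3.65, SE 0.0884, adjusted p = 1.43e-18).

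*DHX58*, the third helicase of the family, followed a similar order of groups. It stood at 69.1, 64.5 and 63.1 CPM in overexpression libraries and at 149.8, 156 and 139.2 CPM in siRNA libraries, against 12.5, 14.5 and 8.05 CPM in control libraries. The rises were 5.62-fold (log2 fold change 2.49, SE 0.138, adjusted p = 2.45e-08) and 12.7-fold (3.67, SE 0.135, adjusted p = 6.62e-11). Overexpression libraries lay below siRNA libraries for *IFIH1* by a log2 fold change of -1.72 and for *DHX58* by -1.18 (adjusted p = 2.07e-14 and 9.43e-07).

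*TLR3*, the endosomal RNA receptor, changed least among the sensors that passed the test. Its level was 34.0, 32.9 and 35.1 CPM in overexpression libraries and 33.7, 27.0 and 35.1 CPM in siRNA libraries, against 25.1, 22.1 and 18.3 CPM in control libraries. Both manipulated groups lay above all control libraries, by 1.56-fold (log2 fold change 0.64, SE 0.105, adjusted p = 6.97e-05) and by 1.46-fold (0.55, SE 0.106, adjusted p = 0.000174). Overexpression and siRNA libraries overlapped, and the 95% interval of their fold was 0.918 to 1.23 (adjusted p = 0.453).

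**Figure D2:**
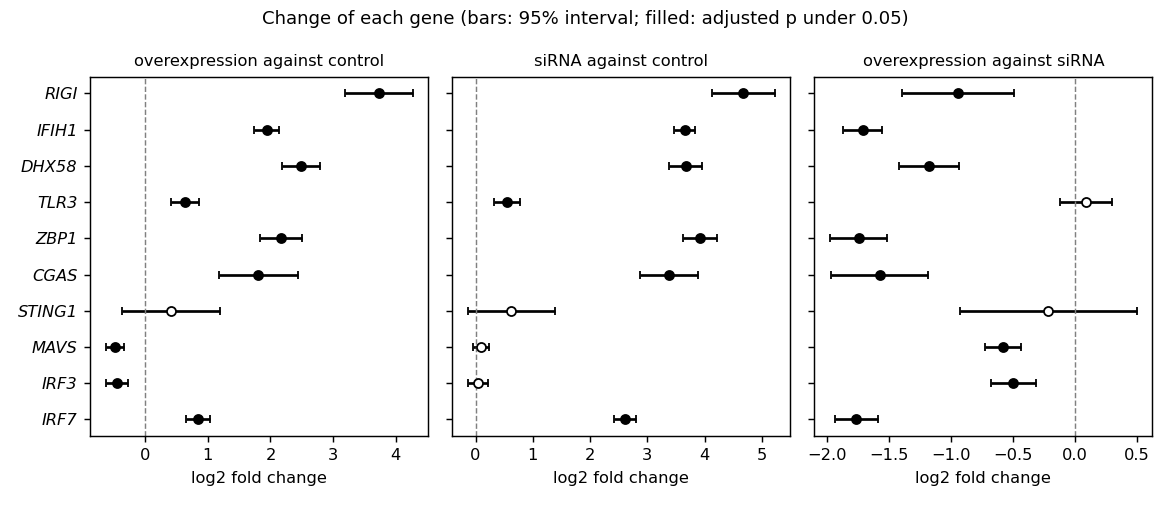
Log2 fold change of each gene in the 3 comparisons (x axis, one panel each), with bars for the 95% interval and filled points for an adjusted p under 0.05. *RIGI* lies at 3.73 and 4.68 against control, *MAVS* at -0.48 and 0.10.

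*ZBP1*, which can trigger inflammatory cell death through *RIPK3*, had 12.3, 12.9 and 12.4 CPM in overexpression libraries and 45.9, 44.7 and 35.5 CPM in siRNA libraries, against 3.62, 2.69 and 1.98 CPM in control libraries. No libraries of different groups overlapped. It rose 4.51-fold in overexpression libraries (log2 fold change 2.17, SE 0.161, adjusted p = 2.00e-09) and 15.1-fold in siRNA libraries (3.92, SE 0.142, adjusted p = 2.34e-15). Its partners in cell death did not pass the test against control. *RIPK3*, a kinase, had a log2 fold change of -0.13 in overexpression and 0.13 in siRNA libraries, *MLKL*, the pore-forming effector, one of 0.05 and -0.18, and *RIPK1* one of -0.02 and -0.05. Between overexpression and siRNA libraries, *RIPK3* (-0.26) and *MLKL* (0.23) passed the test and *RIPK1* (0.03) did not.

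The DNA-sensing pair was scarce. *CGAS*, the DNA-binding enzyme, had 25, 19 and 24 counts in overexpression libraries and 69, 61 and 68 counts in siRNA libraries, against 6, 7 and 6 counts in control libraries. These counts rose stepwise by group without overlap, by 3.50-fold (log2 fold change 1.81, SE 0.300, adjusted p = 5.58e-05) and 10.5-fold (3.39, SE 0.244, adjusted p = 1.15e-10) in the fit. Counting alone allows ratios of 2.11 to 6.26 and of 6.64 to 18.1 between the summed counts (95% exact intervals, counting error only). In RefSeq's Sscrofa11.1 *CGAS* overlaps a gene named LOC100515766, which was not analysed here.

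*STING1*, the adaptor for cGAMP, had 9, 13 and 9 counts in overexpression libraries and 10, 14 and 11 counts in siRNA libraries, against 5, 8 and 10 counts in control libraries. Overexpression libraries overlapped the control, while siRNA libraries lay at or above its highest count. Neither change passed, at a log2 fold change of 0.41 (SE 0.377, adjusted p = 0.386) and 0.63 (SE 0.367, adjusted p = 0.148). The 95% intervals of the fold reached from 0.773 to 2.30 and from 0.909 to 2.63, so a rise like that of *IFIH1* in siRNA libraries lay outside them and a 2-fold rise did not.

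*MAVS*, on which both signalling helicases converge, had 41.4, 42.8 and 41.9 CPM in overexpression libraries and 63.2, 68.1 and 56.8 CPM in siRNA libraries, against 56.6, 61.5 and 57.4 CPM in control libraries. It fell to 0.719 of the control level in overexpression libraries (log2 fold change -0.48, SE 0.0700, adjusted p = 1.42e-05). In siRNA libraries the log2 fold change was 0.10 (SE 0.0683, adjusted p = 0.217), with a fold between 0.971 and 1.18. Of its count values 2 were not whole, by at most 0.31 of a count.

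*IRF3*, the factor that is present before infection and is activated by phosphorylation, had 23.9, 22.3 and 23.7 CPM in overexpression libraries and 29.8, 33.8 and 34.8 CPM in siRNA libraries, against 28.0, 31.9 and 35.2 CPM in control libraries. It too fell in overexpression libraries, to 0.734 of control (log2 fold change -0.45, SE 0.0867, adjusted p = 0.000281), while in siRNA libraries its log2 fold change was 0.05 (SE 0.0842, adjusted p = 0.631, fold between 0.917 and 1.17). *GAPDH* fell in the same libraries by a log2 fold change of -0.37 (adjusted p = 4.70e-05).

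*IRF7*, the inducible relative of *IRF3*, had 46.4, 44.3 and 45.4 CPM in overexpression libraries and 151.5, 171.5 and 139.2 CPM in siRNA libraries, against 23.3, 29.5 and 23.0 CPM in control libraries. Its groups did not overlap. The rise was 1.79-fold in overexpression libraries (log2 fold change 0.84, SE 0.0930, adjusted p = 5.42e-07) and 6.10-fold in siRNA libraries (2.61, SE 0.0896, adjusted p = 1.52e-15). Between overexpression and siRNA libraries it differed by a log2 fold change of -1.76, against -0.50 for *IRF3* and -0.58 for *MAVS* (adjusted p = 2.73e-13, 3.68e-05 and 3.08e-07).

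Levels of different genes were compared in FPKM, which divides by gene length. In control libraries *IRF3* (32.2 ± 3.07 FPKM) and *MAVS* (28.5 ± 1.38) stood at the top, with overlapping ranges, followed by *IRF7* (14.4 ± 2.09; SD, n = 3 each). *TLR3*, *RIGI*, *DHX58*, *IFIH1* and *ZBP1* came next between 7.76 and 2.45 FPKM, and each overlapped its neighbour in that order. *STING1* (0.430 ± 0.0781) and *CGAS* (0.247 ± 0.0208) were last. In control libraries the adaptor and the transcription factor thus stood above all sensors.

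In overexpression libraries *RIGI* led at 79.3 ± 0.874 FPKM, clear of *DHX58* (28.4 ± 1.46) and *IRF7* (27.7 ± 1.30), which overlapped each other. *IRF3* (24.2 ± 0.856) and *MAVS* (20.2 ± 1.16) followed, then *IFIH1* (12.4 ± 0.466) and *TLR3* (12.1 ± 0.400), which overlapped, and *ZBP1* (11.2 ± 0.342). In siRNA libraries *RIGI* again led at 148.7 ± 5.50 FPKM, with *IRF7* at 87.5 ± 7.14, *DHX58* at 63.7 ± 2.12 and *IFIH1* at 40.3 ± 0.774. *IFIH1*, *ZBP1* (37.0 ± 4.25), *IRF3* (33.4 ± 3.11) and *MAVS* (30.8 ± 2.46) overlapped in turn, and *TLR3* was at 11.4 ± 1.79. *CGAS* exceeded *STING1* in both manipulated groups, at 0.887 ± 0.127 FPKM in overexpression and 2.62 ± 0.200 FPKM in siRNA libraries, against 0.543 ± 0.0603 and 0.660 ± 0.0693 FPKM for *STING1*. Among all 16562 genes ranked by mean FPKM, *RIGI* held place 893 in overexpression and 538 in siRNA libraries, and place 6825 in control libraries.

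**Figure D3:**
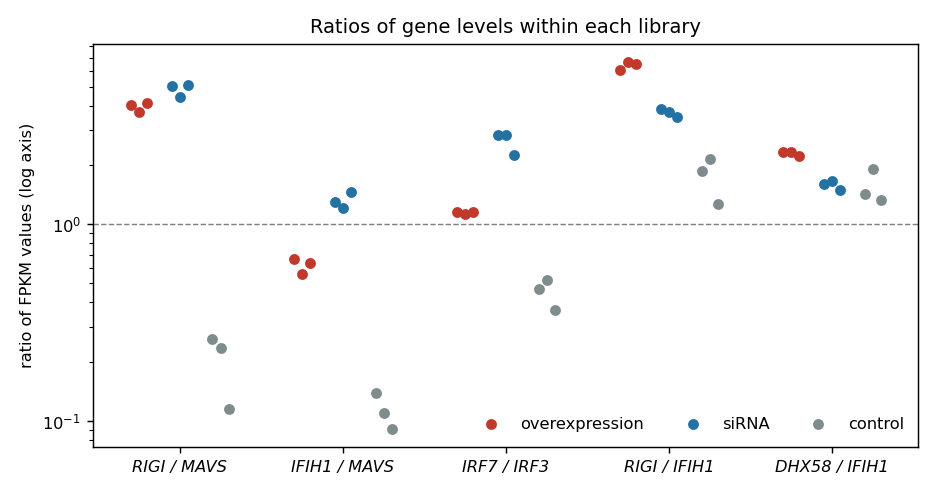
Ratio of FPKM values of 2 genes within each library (log axis, dashed line at 1) for overexpression (red), siRNA (blue) and control (grey). *RIGI* over *MAVS* lies between 3.71 and 5.11 in the manipulated libraries, against at most 0.259 in control libraries.

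Within single libraries, the order of sensor and adaptor transcripts differed between groups. The ratio of *RIGI* to *MAVS* in FPKM was 4.02, 3.71 and 4.10 in overexpression libraries and 5.02, 4.41 and 5.11 in siRNA libraries, against 0.259, 0.235 and 0.115 in control libraries. *IFIH1* stayed below *MAVS* in overexpression libraries (0.663, 0.559 and 0.631) and exceeded it in siRNA libraries (1.3, 1.2 and 1.46), against 0.139, 0.11 and 0.0913 in control libraries. *IRF7* over *IRF3* was 1.15, 1.13 and 1.15 in overexpression libraries and 2.85, 2.84 and 2.24 in siRNA libraries, against 0.466, 0.517 and 0.366 in control libraries.

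The helicases also differed among themselves. *RIGI* over *IFIH1* was highest in overexpression libraries (6.06, 6.64 and 6.51), lower in siRNA libraries (3.86, 3.69 and 3.51) and lowest in control libraries (1.86, 2.14 and 1.26). *DHX58* over *IFIH1* was 2.32, 2.33 and 2.21 in overexpression and 1.60, 1.65 and 1.49 in siRNA libraries, against 1.43, 1.90 and 1.32 in control libraries, where only the siRNA and control ranges overlapped.

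Spread within a group was uneven. Control replicate 3 was the lowest control library for 6 of 10 members, namely *RIGI*, *IFIH1*, *DHX58*, *ZBP1*, *TLR3* and *IRF7*. It was the highest for 2, *IRF3* and *STING1*. The first 6 summed to 71.2 CPM there, against 100.3 and 103.5 CPM in control replicates 1 and 2. They were picked for being lowest there, so that their sum was lowest there was fixed by the choice. The sum of the same 6 was 469, 465 and 471 CPM in overexpression libraries and 1051, 1047 and 976 CPM in siRNA libraries. The coefficient of variation of *RIGI* was 35.4% in control libraries, where counting alone gives 5.30%, and 1.76% in overexpression libraries, where counting gives 1.45%. Without control replicate 3 *RIGI* was 11.1-fold higher in overexpression and 21.3-fold higher in siRNA libraries than in control.

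Genes whose course over the 9 libraries came nearest to each member were sought by the root-mean-square difference of centred log2 CPM. It is a description without a test, and genes named by a LOC number were left out. Nearest to *RIGI* was *HERC5*, a ligase for the ubiquitin-like *ISG15* (difference 0.186), then *ISG12(A)* (0.309). *IFIH1* and *ZBP1* both had *DTX3L*, a ubiquitin ligase, as their nearest gene (0.103 and 0.138), and *ZBP1* had *IFIH1* as its second. *DHX58* lay nearest to *XAF1* and *USP18* (0.175 and 0.210), *CGAS* to *GBP1* and *RTP4* (0.148 and 0.222), and *IRF7* to *TRANK1* and *IGFBP5* (0.123 and 0.126).

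Members with small changes lay nearest to genes that also changed little, which follows from a measure that compares sizes of change. *MAVS* was nearest to *PRRC2A* and *CHD3* (0.0379 and 0.0453), *IRF3* to *LAMTOR2* and *PRAF2* (0.0438 and 0.0554), and *TLR3* to *DMXL1* and *PHC3* (0.0511 and 0.0675). *STING1*, with its low counts, was nearest to *CERK* and *ZMYND19* (0.181 and 0.184). *RTP4* was also second for *IFIH1* (0.127).

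Other nucleic acid sensors were mostly higher than in control, with the largest changes in *OAS1*, *DDX60* and *OAS2* in both groups. Of 24 tested, 16 were higher and 1 lower in overexpression than in control libraries (23.9% and 23.4% of all tested genes). In siRNA libraries 14 were higher and 4 lower (29.5% and 29.9% of all tested genes). Their median log2 fold changes were 0.28 and 0.29. *OAS1*, which makes oligoadenylates on binding double-stranded RNA, averaged 51.2 CPM in overexpression and 124.5 CPM in siRNA libraries, against 6.65 CPM in control libraries. *OAS2* changed by log2 fold changes of 2.75 and 3.22 and *DDX60*, a helicase, by 3.08 and 3.79, all with an adjusted p under 0.05. *EIF2AK2* (PKR), which halts translation, rose by 1.86 and 2.55 and *ADAR*, which edits double-stranded RNA, by 1.00 and 1.88 on the log2 scale.

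The other endosomal receptors were near the limit of detection. *TLR7*, a receptor for single-stranded RNA, had 43 counts in all in overexpression and 10 in siRNA libraries, against 10 in control libraries (log2 fold changes 2.05, which passed, and 0.03, which did not). It could be tested only through its counts in the overexpression libraries, so its call there was fixed in part by the filter. *TLR9* had 17 and 4 counts, against 1, and *TLR8* had 5 and 0 counts, against 0, and neither was tested. *TREX1*, a DNA exonuclease that limits *CGAS* signalling, rose in siRNA libraries (1.64) and did not pass in overexpression libraries (0.12), with a difference of -1.52 between overexpression and siRNA libraries that passed the test.

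**Figure D4:**
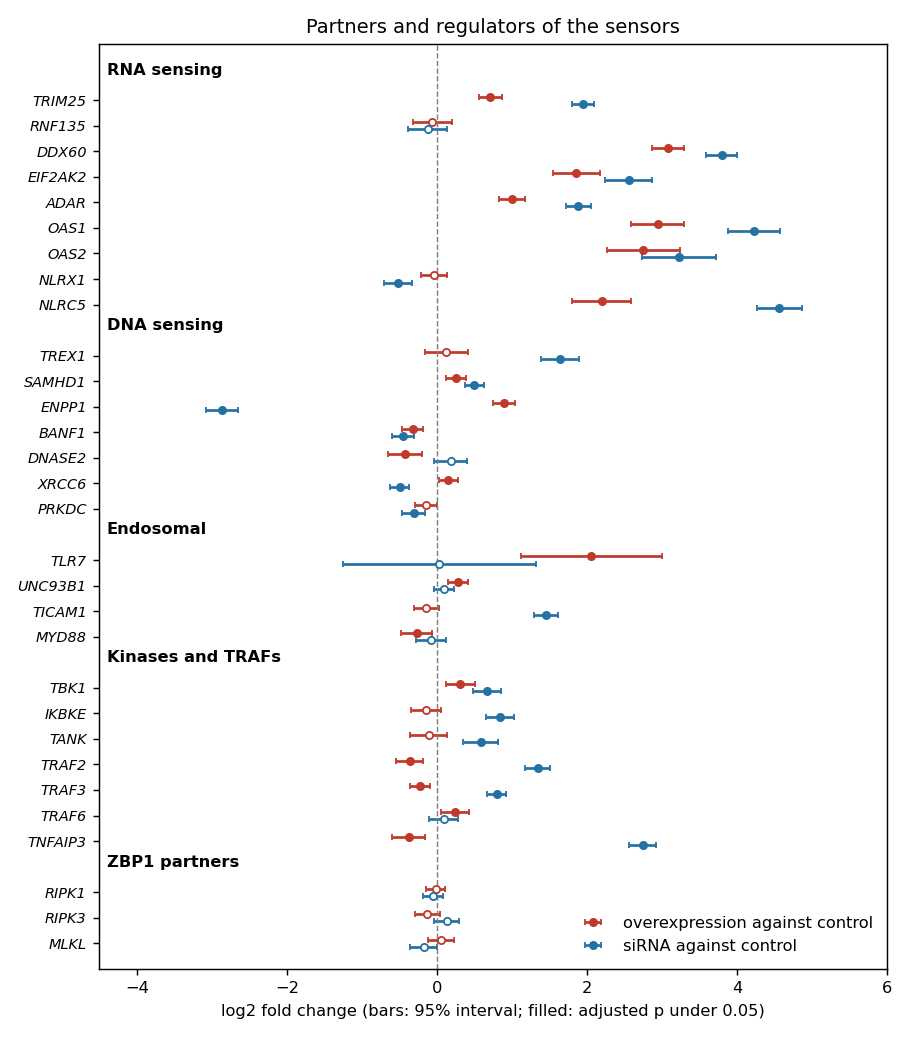
Log2 fold change against control of partners and regulators of the sensors, grouped by role, in overexpression (red) and siRNA libraries (blue), with 95% intervals and filled points for an adjusted p under 0.05. *ENPP1* lies at 0.90 and -2.86, *RIPK3* near 0 in both.

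Among adaptors, kinases and ubiquitin ligases of the sensor pathways, 27 were tested. In overexpression against control 6 were higher and 5 lower (23.9% and 23.4% of all tested genes). In siRNA against control 13 were higher and 6 lower (29.5% and 29.9% of all tested genes). Their median log2 fold changes were -0.037 and 0.13. *TRIM25*, the ubiquitin ligase that activates *RIGI*, rose in both, by 0.71 and 1.94, while *RNF135*, another ligase for *RIGI*, was at -0.06 and -0.13 and did not pass. *TBK1*, the kinase that phosphorylates *IRF3*, was at 0.31, a call lost under 3 of 17 alternatives, and 0.66, and its relative *IKBKE* at -0.15, which did not pass, and 0.84.

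*TICAM1* (TRIF), the adaptor of *TLR3*, averaged 28.9 CPM in overexpression and 87.1 CPM in siRNA libraries, against 31.9 CPM in control libraries, with log2 fold changes of -0.14, not passing, and 1.45, which passed. *TICAM2*, its bridging adaptor, was at 0.61 and -0.62, each of which lost its call under 4 of 17 alternatives. *TRAF2*, a signalling ubiquitin ligase, fell in overexpression libraries (-0.36) and rose in siRNA libraries (1.34), and its direct difference between overexpression and siRNA libraries was -1.71 (adjusted p under 0.05).

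Negative regulators changed in both directions, as did all tested genes. Of 21 tested, 6 were higher and 8 lower in overexpression than in control libraries (23.9% and 23.4% of all tested genes). In siRNA libraries 7 were higher and 5 lower (29.5% and 29.9% of all tested genes). Their median log2 fold changes were -0.064 and 0.11. *USP18*, which blocks the interferon receptor, rose by 2.2 and 3.18 and *NLRC5*, described as an inhibitor of these pathways and as an activator of MHC class I genes, by 2.19 and 4.56. *TNFAIP3* (A20), a brake on NF-kB signalling, averaged 12.5 CPM in overexpression and 108.6 CPM in siRNA libraries, against 16.2 CPM in control libraries. *RNF125*, a ligase that marks *RIGI* for degradation, was at -0.18, not passing, and 1.32, and *RNASEH2C*, a subunit of the enzyme that removes RNA from DNA, at -0.50 and -0.43.

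*ENPP1*, the enzyme that hydrolyses cGAMP outside the cell, moved in opposite directions. It averaged 47.1 CPM in overexpression and 3.47 CPM in siRNA libraries, against 25.3 CPM in control libraries, with log2 fold changes of 0.90 and -2.86 and a direct difference of 3.76 between overexpression and siRNA libraries, all past the test.

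Of the interferon genes listed, *IFNB1* and *IFNE* were in the table, both at low counts, and the others were not analysed here. *IFNB1*, the interferon that *IRF3* induces, had 1 count in all in overexpression and 5 in siRNA libraries, against 0 in control libraries. *IFNE* had 1 and 41 counts, against 5, which is 8.38 times as many in siRNA as in control libraries per sequenced count (95% exact interval 3.31 to 27.2, counting error only). Of the 5 interferon receptor genes tested, 2 were higher and 2 lower in overexpression libraries (23.9% and 23.4% of all tested genes). In siRNA libraries 3 were higher and 1 lower (29.5% and 29.9% of all tested genes). *IFNAR2*, a chain of the receptor for *IFNB1*, was at -0.38 and 0.61, *IFNGR2* at -0.55 and 0.83, *IFNGR1* at 0.35 and 0.23 and *IL10RB* at 0.35, a call lost under 5 of 17 alternatives, and -0.76.

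Most factors downstream of the interferon receptor were higher in both groups. Outside the members, 7 interferon regulatory factors and STATs were tested. In overexpression libraries 4 were higher and 1 lower (23.9% and 23.4% of all tested genes). In siRNA libraries 5 were higher and 1 lower (29.5% and 29.9% of all tested genes). Their median log2 fold changes were 0.28 and 0.91. *IRF9*, the DNA-binding part of the interferon-activated factor ISGF3, was at 0.68 and 1.23 on the log2 scale and its partner *STAT2* at 0.40 and 0.89, all past the test. *IRF1* rose in siRNA libraries (1.10) and was at -0.09 in overexpression libraries, not passing, and *IRF2* rose by 0.27 and 0.91.

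Targets of *IRF3* and of interferon were higher in both groups. Of 28 tested, 26 were higher and 0 lower in overexpression libraries (23.9% and 23.4% of all tested genes). In siRNA libraries 28 were higher and 0 lower (29.5% and 29.9% of all tested genes). Their median log2 fold changes were 2.88 and 4.11. The 2 that did not pass in overexpression libraries, *ISG20* and *IFI35*, had log2 fold changes of 1.26 and 0.14. *ISG15*, a ubiquitin-like modifier, averaged 76.8 CPM in overexpression and 332 CPM in siRNA libraries, against 3.85 CPM in control libraries. The gap between the manipulated groups was widest for *CXCL10*, a chemokine that attracts T cells, with 1.5 CPM in overexpression and 182.5 CPM in siRNA libraries, against 0.328 CPM in control libraries, and for *RSAD2*, with 11.8 and 234.9 CPM, against 2.26 CPM. *CCL5*, another chemokine, had a difference of -3.37 between overexpression and siRNA libraries and *MX2* one of -3.07.

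Most tested markers of another cell type, the macrophage, were higher in the overexpression group. Of 16 tested, 12 were higher and 1 lower in overexpression than in control libraries (23.9% and 23.4% of all tested genes). The rest, *SPI1* (log2 fold change 0.38), *ITGAM* (0.04) and *TYROBP* (-0.58), did not pass there. Several of the 12, among them *CD163*, *SIGLEC1*, *C1QA*, *C1QB*, *C1QC*, *MSR1* and *PTPRC*, passed the filter for testing only through the overexpression libraries. That these were higher there was fixed in part by the filter, so the count cannot be weighed against the share of all tested genes. In siRNA libraries 2 were higher and 1 lower (29.5% and 29.9% of all tested genes). The summed level of all 20 markers was 80.3 to 84.3 CPM in overexpression, 63.0 to 69.2 CPM in siRNA and 46.6 to 58.4 CPM in control libraries, and *CD14* alone averaged 27.3, 47.2 and 36.7 CPM, lower in overexpression (log2 fold change -0.43) and higher in siRNA libraries (0.36) than in control. *C1QA* had 257 counts in overexpression and 2 in siRNA libraries, against 0 in control libraries, and *CSF1R*, the receptor for a macrophage growth factor, had 235 and 11 counts, against 7. *CD163*, *SIGLEC1*, *C1QA*, *C1QB*, *PTPRC* and *ADGRE1* had 0 counts in all control libraries, and *CD163* had 106 counts over the overexpression libraries. Their part in the levels of the sensors in overexpression libraries was not tested. In siRNA libraries, where *RIGI*, *IFIH1*, *ZBP1* and *IRF7* were highest, *CD163*, *C1QB*, *C1QC*, *MSR1*, *MARCO*, *PTPRC* and *ADGRE1* had 0 counts, while *TYROBP*, a signalling adaptor of myeloid cells, was higher than in control (log2 fold change 1.48, 309 against 113 counts), as was *CD14*. The part of these in the levels of the sensors in siRNA libraries was not tested either. Endothelial markers summed to at most 19.2 CPM in any library, nearly all of it *PECAM1*, and lymphocyte markers to at most 0.539 CPM.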

How the data were processed

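The authors aligned reads with HISAT (their processing notes also name FastQC) and deposited estimated counts and FPKM values for 16562 genes in 9 libraries. Counting tool, genome build, annotation and strand are not stated in these sources. Per the labels, the protocol describes removal of ribosomal RNA and the paper's methods oligo(dT)-primed cDNA. Deposited estimated counts (5.38% of values not whole, tolerance 1e-09) were rounded. The FPKM values deposited by the authors, scaled by gene length and library size, were used to compare genes and in limma.

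Counts were fitted with edgeR 4.0.16 (R 4.3.3) in 1 model of all 9 libraries, with filterByExpr, TMM factors, robust dispersions and the quasi-likelihood F test, and Benjamini-Hochberg adjustment over 12721 genes. A gene was called at an adjusted p under 0.05. The filter keeps a gene that is high enough in 1 group, so a call in that group can be fixed in part by the filter where the gene is near 0 elsewhere. Standard errors are the absolute log2 fold change over the square root of F. The fit was also run on simulated counts in which far fewer genes changed than were called here. That run does not cover data in which so many genes differ. Intervals from counts cover counting error only.

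The members and lists were chosen with earlier results of these data known. Named are all members, up to 4 genes per list and comparison with the largest change among those called, the 2 genes nearest to each member, and *ACTB* and *GAPDH*. Other genes, and those drawn by role in the plot of partners, were chosen after their values were seen. Some genes that this rule takes are not reported here. Protein, promoter and siRNA sequences were not used here. Alternatives were DESeq2 1.42.0, no TMM factors, no filter, a stricter filter, 2 groups only, a replicate block, limma 3.58.1 on log2(FPKM + 1) or log2(FPKM + 0.1), a 2-fold rule and each library left out.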

Additional observations from a re-analysis of the deposited data

How the results depend on the processing

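Of 506 recomputed log2 fold changes of the members, 503 kept their side of the threshold, 0 lost a call or reversed one and 3 gained a call. Of those of the other named genes, 1744 kept their side, 22 lost a call, 11 gained one and 0 reversed. *STING1* in siRNA against control passed with limma on log2(FPKM + 1) and log2(FPKM + 0.1), at 0.22 and 0.53, and *MAVS* passed without siRNA replicate 3 at 0.17. *STING1* was not tested under every alternative, since it falls under some filters. With the 2-fold rule 5 members were higher and 0 lower in overexpression against control, 6 were higher in siRNA against control, and 5 were lower in overexpression against siRNA.

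The replicate numbers are not said to mark shared batches, and deviations of same-numbered libraries correlated between -0.0981 and 0.123. With the replicate block 7 members were higher and 2 lower in overexpression against control, 7 and 0 in siRNA against control, and 0 and 8 in overexpression against siRNA, and no call of a member changed.

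Alternatives for the pathway lists were chosen after seeing the data, and the 2-fold rule was not run on them. In overexpression against control, the adaptors, kinases and ligases called higher numbered 3 with limma on log2(FPKM + 0.1), and those called lower 4 to 8 with a library left out, the 8 without control replicate 1. Interferon regulatory factors and STATs called lower numbered 0 with the stricter filter in both comparisons with control and 0 to 1 with a library left out. Interferon receptors called higher in overexpression libraries numbered 1 with DESeq2 and 1 to 2 with a library left out, and those called lower in siRNA libraries 1 to 2, the 2 without control replicate 3.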
